A study of Homo sapiens with 22 samples.

Results

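The window chr8:126500000-129500000 (hg38) around MYC and PVT1 was examined in ATAC-seq peak lists of 22 libraries. Members were chosen by position, as every called peak that overlaps the window. The 22 lists held 870 such peaks among 853683 in all, and merging peaks that overlap across libraries gave 117 regions of 96166 in the genome. MYC (chr8:127735434-127742951) and PVT1 (chr8:127794524-128101256) are placed as in the RefSeq annotation of GRCh38.p14. Between the end of MYC and the start of PVT1 lie 51.6 kb, and the window reaches 1235 kb before the start of MYC and 1399 kb beyond the end of PVT1.

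MYC encodes a transcription factor that drives cell growth and division, and it is a common oncogene of multiple myeloma. PVT1 is a long non-coding RNA gene beside it, and DNA within PVT1 holds enhancers and a promoter that can compete with the MYC promoter. Both lie in a long stretch of chromosome 8 with few protein-coding genes, where enhancers used by different tissues sit far to either side of MYC. ATAC-seq marks DNA that the transposase Tn5 can reach, so a called peak marks accessible chromatin and measures neither expression nor contact with a promoter.

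The libraries come from KMS11 and KMS34, 2 multiple myeloma cell lines labelled with bone marrow as tissue. The labels give the genotype t(4;14), a translocation that places NSD2, a histone methyltransferase gene, under immunoglobulin heavy chain control. The groups of 2 libraries each are KMS34 in NSD2LDD at days 4 and 10, KMS34 untreated at day 0, KMS34 in DMSO at days 4 and 10, KMS11 in NSD2LDD at days 4 and 10, KMS11 TKO at day 0, KMS11 untreated at day 0, and KMS11 in DMSO at days 4 and 10. Per the series' design text, NSD2LDD is the agent used to degrade NSD2, and DMSO is its vehicle. TKO stands in the genotype field of its 2 libraries in place of t(4;14). The sources used here give neither its meaning, nor whether it is 1 clone, nor the concentration of NSD2LDD. Whether the 2 libraries of a group are separate cultures is not stated, so a p-value reflects the spread between libraries, which may be technical. Libraries without a called peak at a region differ there only by scaling. Where a whole line lacks a peak, the shared estimate of spread and the p-value may therefore be too small.

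Peak lists held 24979 to 52518 peaks (median 37598.5) that covered 11.5 to 31.8 Mb. Read counts are not in the lists, so sequencing depth is unknown, and a region without a called peak may be closed or under-sequenced. The lists of KMS34 at day 0 and in DMSO held 34165 to 52518 peaks and those of KMS11 held 24979 to 39002, and the part of list length in the differences between lines was tested only through the alternatives given beside them. Of 8 plasma cell markers, 6 had called peaks in all 22 libraries, SLAMF7 in 9 of 10 KMS34 and 0 of 12 KMS11 libraries, and JCHAIN in 5 of 10 KMS34 and 12 of 12 KMS11 libraries. MS4A1, CD3D and MPO, markers of B cells, T cells and myeloid cells, had a called peak in no library. NKG7, a marker of natural killer cells, had peaks in 10 of 10 KMS34 and 0 of 12 KMS11 libraries, and the summed covered length of 4 myeloid markers was 233 to 930 bp in KMS34 and 0 to 290 bp in KMS11. NSD2 itself had 770 and 374 bp of peaks in TKO libraries, against 458 and 494 bp in day 0 KMS11 libraries, counting 5 kb either side, and such a length measures no protein.

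Within the window, 34 to 55 peaks were called in KMS34 libraries and 28 to 43 in KMS11 libraries. They covered 16739 to 31356 bp in KMS34 and 11945 to 24461 bp in KMS11, so the lines overlapped. As a share of all bases covered by peaks in a library, the window took 0.0778% to 0.108% (median 0.0953%). The share was thus within a narrow range although the lists differed in length. Of the 117 regions, 70 overlapped an annotated gene (59.8%, against 65.6% of all regions) and 47 did not. Their widths ran from 151 to 2169 bp, with a median of 448 bp in the window and 514 bp over all regions.

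Only 11 of the 117 regions (9.40%) had a called peak in all 22 libraries, against 14.4% of regions genome-wide. A further 48 regions (41.0%, against 36.1% genome-wide) had peaks in some KMS34 libraries and no KMS11 library. Another 27 (23.1%, against 17.9%) had them in some KMS11 libraries and no KMS34 library, and 26 (22.2%, against 27.4%) in part of both lines. All 10 KMS34 libraries and no KMS11 library had a peak in 3 regions (2.56%, against 2.52%). All 12 KMS11 libraries and no KMS34 library had one in 2 (1.71%, against 1.76%). A single library accounted for 39 regions (33.3%, against 28.1%), which entered no test. Covered bases in the window overlapped between libraries of a group with a median Jaccard index (shared over joint bases) of 0.527 (11 pairs), between groups of a line with 0.536 (100 pairs) and between lines with 0.353 (120 pairs). In the window, libraries of different groups within a line, which differ in treatment, day or genotype, were thus about as alike as duplicates. Libraries of different lines were less alike.

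**Figure D1:**
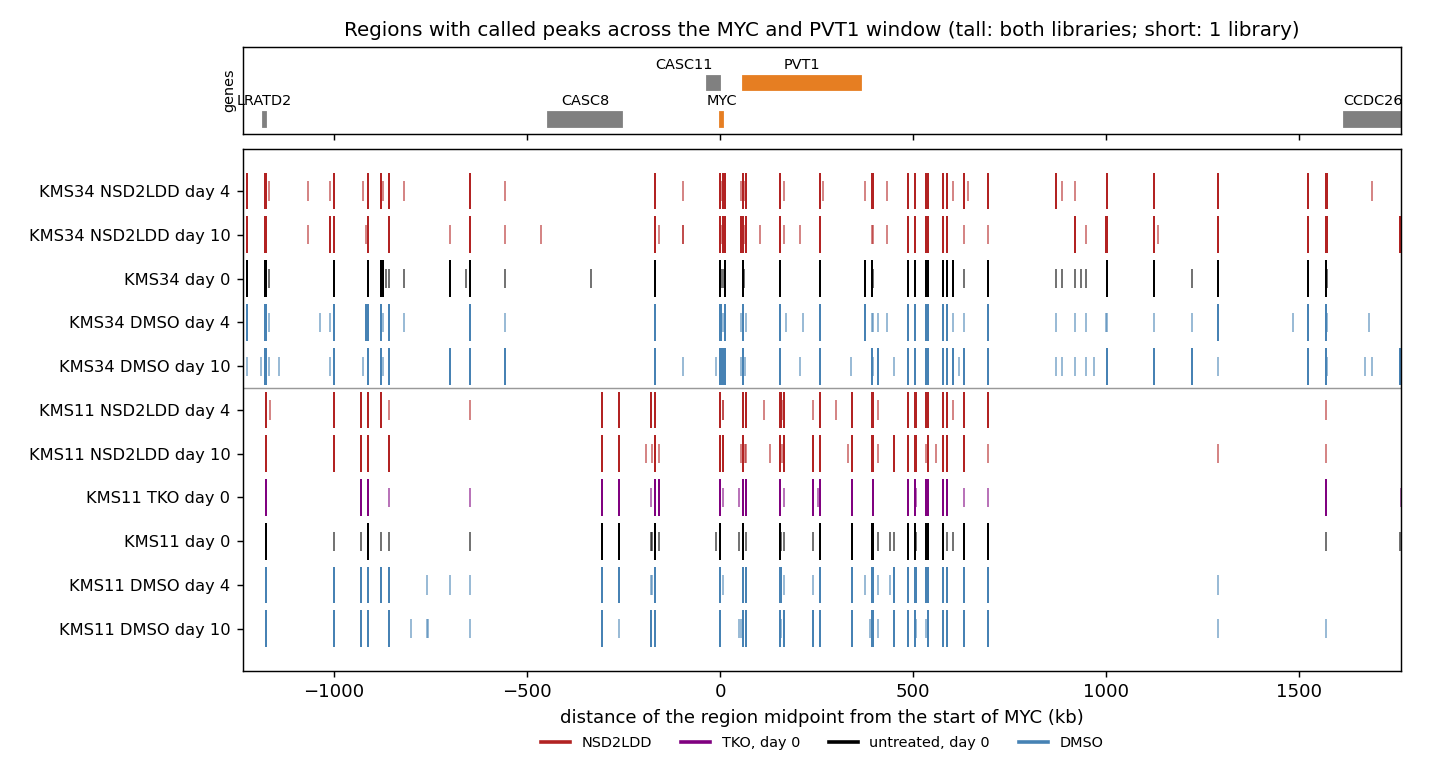
Regions of the window with called peaks in each of the 11 groups, by distance of the region midpoint from the start of MYC in kb; tall marks are regions called in both libraries of a group, short marks in 1, and genes are drawn above. All 22 libraries share 11 regions, while marks between about 1000 and 1500 kb beyond the start of MYC are nearly all in KMS34, where 5 of the 6 regions were called in KMS34 alone. Of these 5, the regions at 1133 and 1483 kb were each called in 1 library. Genome-wide, 36.1% of regions were called in some KMS34 and no KMS11 library, and 2.52% in all KMS34 and no KMS11 library.

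The MYC promoter was accessible in every library. The region at the start of MYC, chr8:127735013-127736517, had 1285 to 1494 bp of peaks in the 10 KMS34 libraries (median 1439.5 bp) and 946 to 1494 bp in the 12 KMS11 libraries (median 1335 bp). Its strongest summit lay 508 to 794 bp past the annotated start, inside the gene. By −log10 q this peak ranked in the top 11.5% to 27.2% of its list (median 18.0%), and at places 3 to 13 among the peaks of the window. It was therefore never the strongest peak of the window. On the scaled log2 scale this region differed by 0.02 ± 0.09 (SE) for NSD2LDD minus DMSO in KMS34 (limma adjusted p = 1.00), -0.06 ± 0.09 in KMS11 (adjusted p = 0.999), 0.08 ± 0.13 for TKO minus day 0 KMS11 (adjusted p = 0.935) and -0.04 ± 0.08 for KMS34 minus KMS11 (adjusted p = 0.715).

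A second region at the far end of MYC, chr8:127741668-127742456, was called less regularly. Peaks were present in 8 of 10 KMS34 libraries (up to 715 bp) and 5 of 12 KMS11 libraries (up to 669 bp). The lines overlapped, and the difference of 1.16 ± 0.65 did not pass the test (limma adjusted p = 0.191). A short neighbour, chr8:127742545-127742861, was called in 1 KMS11 library in NSD2LDD at day 4 (317 bp) and was not tested. Inside the gene, chr8:127737673-127738805, singled out here after its values were seen, had peaks in 7 of 10 KMS34 libraries and in 0 of 12 KMS11 libraries. Its 6 KMS34 libraries at day 0 and in DMSO had 0 to 1128 bp (median 541.5 bp), and it was higher in KMS34 (limma adjusted p = 0.00913). It did not pass with lists of equal length (adjusted p = 0.0966) or with log2 peak number as a covariate (0.0592).

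The PVT1 promoter was likewise called everywhere. The region at its start, chr8:127794123-127796291, also overlaps the microRNA gene MIR1204 and had 988 to 1950 bp of peaks in KMS34 (median 1813.5 bp) and 727 to 1778 bp in KMS11 (median 1351 bp). The strongest summit lay at -20 to 626 bp from the annotated start (median 14.5 bp), and the peak ranked in the top 43.8% of its list or higher (median 25.2%). The values overlapped between lines, and none of the comparisons passed the test at this region. Its scaled log2 difference was 0.36 ± 0.15 for NSD2LDD minus DMSO in KMS34 (limma adjusted p = 0.424), -0.09 ± 0.15 in KMS11 (adjusted p = 0.999), -0.05 ± 0.21 for TKO (adjusted p = 0.935) and 0.04 ± 0.12 for KMS34 minus KMS11 (adjusted p = 0.817).

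The strongest peaks of the window lay away from both promoters. A region inside PVT1, chr8:127889695-127890635, 155 kb past the start of MYC, held the peak with the highest −log10 q in 6 of 10 KMS34 libraries and 9 of 12 KMS11 libraries. It was narrow, at 527 to 859 bp in KMS34 (median 726 bp) and 434 to 804 bp in KMS11 (median 652.5 bp). In the other libraries the strongest peak was at chr8:127992468-127993778 inside PVT1, 258 kb past the start of MYC (1 KMS34 and 2 KMS11 libraries), or at the high-coordinate boundary of LRATD2, chr8:126557653-126558875 (3 KMS34 libraries and 1 KMS11 library). LRATD2 is the protein-coding gene at the low end of the window, 1177 kb before MYC. All 3 of these regions were among the 11 called in all 22 libraries, and none of them passed the test in any comparison.

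The other shared regions flank the genes. One, chr8:127565651-127567634, lies 169 kb before MYC outside annotated genes. Another, chr8:126824276-126825283, lies 911 kb before MYC within the non-coding genes LOC105375751 and LOC105375753, with 278 to 798 bp in KMS34 and 180 to 808 bp in KMS11. The other 4 lie between 487 and 578 kb past the start of MYC, beyond PVT1 and outside annotated genes. These are chr8:128221928-128222766 (461 to 745 bp in KMS34 and 364 to 821 bp in KMS11), chr8:128240032-128240832 (374 to 717 bp in KMS34 and 326 to 744 bp in KMS11), chr8:128273078-128274643 (602 to 1371 bp in KMS34 and 178 to 1566 bp in KMS11) and chr8:128313178-128314428 (603 to 996 bp in KMS34 and 261 to 1132 bp in KMS11). The lines overlapped at each of these 5 regions from LOC105375751 to the last beyond PVT1.

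For the NSD2LDD libraries it was asked here whether called peaks around MYC differ from those in DMSO. The peak lists do not measure how far NSD2 was degraded. MYC, counted as its body with 5 kb either side, had 2114 and 2537 bp in NSD2LDD at day 4 and 2238 and 2983 bp at day 10 in KMS34, against 2165 and 2932 bp in DMSO at day 4 and 3406 and 2049 bp at day 10. In KMS11 it had 1662 and 2296 bp in NSD2LDD at day 4 and 1768 and 2102 bp at day 10, against 1672 and 2255 bp in DMSO at day 4 and 1486 and 1761 bp at day 10. NSD2LDD and DMSO libraries overlapped in both lines. NSD2LDD minus DMSO was -0.05 ± 0.11 on the scaled log2 scale in KMS34 and 0.10 ± 0.11 in KMS11 (SE, 4 libraries against 4, limma adjusted p = 1.00 in each). The difference of these effects, KMS34 minus KMS11, was -0.16 ± 0.16 (limma adjusted p = 1.00).

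PVT1, counted in the same way, had 3973 and 4350 bp in NSD2LDD at day 4 and 4509 and 4553 bp at day 10 in KMS34, against 2851 and 4662 bp in DMSO at day 4 and 4247 and 2744 bp at day 10. In KMS11 it had 5606 and 6152 bp in NSD2LDD at day 4 and 4133 and 6537 bp at day 10, against 4543 and 4865 bp in DMSO at day 4 and 3633 and 5869 bp at day 10. Both NSD2LDD libraries of KMS11 at day 4 were above both DMSO libraries of that day, both of KMS34 at day 10 likewise, and the other day of each line overlapped. NSD2LDD minus DMSO was 0.30 ± 0.11 on the scaled log2 scale in KMS34 (unadjusted p = 0.0123, limma adjusted p = 0.525) and 0.22 ± 0.11 in KMS11 (unadjusted p = 0.0537, limma adjusted p = 1.00), so neither passed. Over all genes tested, 0.0606% passed under NSD2LDD in KMS34, 0.0212% in KMS11, and 0% for the difference between lines, which was 0.08 ± 0.15 at PVT1 (limma adjusted p = 1.00).

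**Figure D2:**
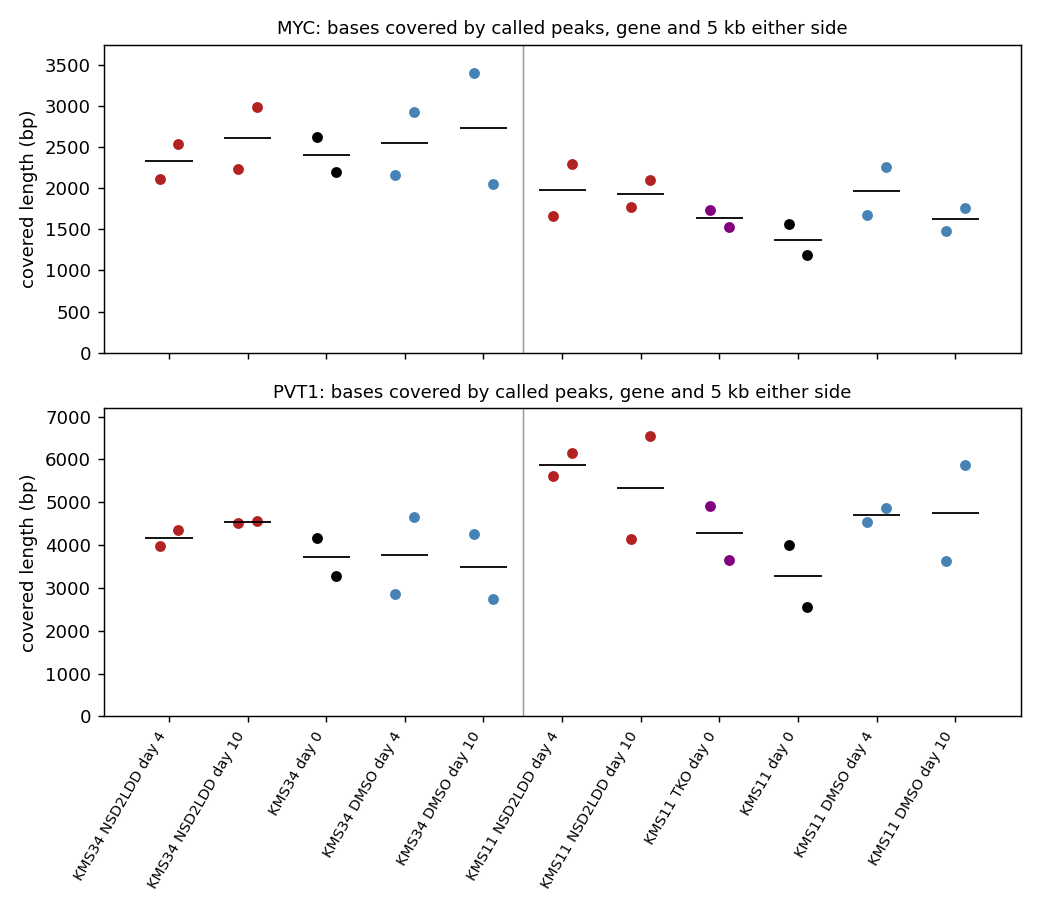
Bases covered by called peaks over MYC and over PVT1 with 5 kb either side, in bp, for each library; points are libraries, coloured by treatment, and black lines are group means of 2 libraries. KMS34 libraries lie between 2049 and 3406 bp at MYC and KMS11 libraries between 1187 and 2296 bp, while at PVT1 the KMS34 libraries (2744 to 4662 bp) lie within the KMS11 range (2547 to 6537 bp).

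None of the 78 tested regions of the window passed the test for NSD2LDD minus DMSO in KMS34, where 0.986% of all regions did, and none did in KMS11, where 0.0694% did. The share over all regions in KMS34 is itself unsteady: 682 regions passed, against 6 of 56944 in a fit within 1 line, and 114 to 886 without 1 library, the lowest without NSD2LDD day 4 replicate 2 of KMS11. In KMS11, 48 regions passed over the genome, against 0 of 44783 in a fit within 1 line. At an unadjusted limma p under 0.05 there were 10 regions of the window in KMS34 (12.8%, against 9.88% of all regions) and 3 in KMS11 (3.85%, against 4.80%). The median log2 difference over the 78 regions was 0.02 in KMS34 and -0.01 in KMS11, equal to the medians over all regions at that rounding. For the difference of the NSD2LDD effects between lines, 0 of 78 regions passed, against 0.00578% of all regions. An unadjusted p under 0.05 was found there at 5 regions of the window (6.41%, against 5.99% of all regions). Leaving out single libraries moved these counts. Without DMSO day 4 replicate 1 of KMS34, 2 regions passed in KMS34, 1 passed without DMSO day 4 replicate 2 and 1 without either day 0 library, and in KMS11 1 region passed without DMSO day 4 replicate 1.

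The regions nearest the threshold under NSD2LDD were short peaks present in some libraries. In KMS34, chr8:128957920-128958292 in the non-coding gene LINC00976 had no called peak in any of 4 NSD2LDD libraries, against 0, 241, 343 and 349 bp in DMSO (limma adjusted p = 0.0839). With peaks of −log10 q of 5 or more it passed (adjusted p = 0.0351), and likewise with no scaling (0.0466) and without DMSO day 4 replicate 1 (0.0439) or either day 0 library (0.0469 and 0.0455). At chr8:128859078-128859946, 1124 kb past the start of MYC, KMS34 had 282, 385, 590 and 714 bp in NSD2LDD, against 0, 243, 294 and 229 bp in DMSO. All but 1 of the NSD2LDD libraries were above every DMSO library. The log2 difference was 1.16 ± 0.33 (limma adjusted p = 0.126), and it passed without DMSO day 4 replicate 2 (adjusted p = 0.0216) and after quantile normalization (0.00535).

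Lower in the same list, chr8:126857103-126857674 had 201, 383, 0 and 0 bp in NSD2LDD libraries of KMS34, against 208, 286, 488 and 262 bp in DMSO, a log2 difference of -1.01 ± 0.33 (limma adjusted p = 0.245). Both day 10 libraries in NSD2LDD lacked this peak. At chr8:128338466-128339221 the values were 0, 179, 0 and 0 bp in NSD2LDD and 0, 407, 472 and 452 bp in DMSO (log2 difference -1.44 ± 0.51, adjusted p = 0.322).

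In KMS11, chr8:127802493-127802919 inside PVT1 had no called peak in any of 4 NSD2LDD libraries, against 0, 237, 146 and 388 bp in DMSO (limma adjusted p = 0.147). It passed without DMSO day 4 replicate 1 (adjusted p = 0.0283), the DMSO library that lacked the peak, after quantile normalization (0.0480), scored as called or not (0.0379) and in windows around summits (0.0380). At chr8:127992468-127993778, also inside PVT1, KMS11 had 1127, 1255, 856 and 1091 bp in NSD2LDD, against 882, 853, 774 and 952 bp in DMSO. At each day both NSD2LDD libraries were above both DMSO libraries except for the lower day 10 library. The log2 difference was 0.28 ± 0.08 (limma adjusted p = 0.324), and in KMS34 it was 0.19 ± 0.08 (adjusted p = 0.462). The region chr8:126976923-126977361, 758 kb before MYC, had no called peak in NSD2LDD libraries of KMS11 and 439, 0, 0 and 335 bp in DMSO (adjusted p = 0.809).

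In TKO libraries, MYC had 1737 and 1527 bp, against 1561 and 1187 bp in day 0 KMS11, and PVT1 had 4914 and 3646 bp, against 4004 and 2547 bp. Values of the groups overlapped at both genes. TKO minus day 0 KMS11 was 0.09 ± 0.16 on the scaled log2 scale at MYC (limma adjusted p = 0.922) and 0.24 ± 0.15 at PVT1 (adjusted p = 0.537), where 4.14% of all genes passed. None of the 78 regions passed (9 at an unadjusted p under 0.05), against 4.07% of all regions, and the median log2 difference was -0.14 in the window and over all regions.

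Nearest the threshold in TKO was chr8:128127548-128128147, 392 kb past the start of MYC, with no called peak in either TKO library, against 376 and 263 bp in day 0 KMS11 (limma adjusted p = 0.0772). It passed with lists of equal length (adjusted p = 0.0377), after quantile normalization (0.0118), in a fit within the KMS11 libraries (0.0240), and without either library of KMS34 in DMSO at day 4 or in NSD2LDD at day 10 (0.0220 to 0.0322). Inside PVT1, chr8:127975531-127976807 had 1277 and 759 bp in TKO, against 0 and 208 bp in day 0 KMS11. Both TKO libraries were above the other 10 KMS11 libraries except for 1 in NSD2LDD at day 10, which had 954 bp and exceeded the lower TKO value. The log2 difference was 2.49 ± 0.76 (limma adjusted p = 0.0987), and it passed with peaks of −log10 q of 5 or more (0.00619), with 300 bp added (0.0358) and without day 0 replicate 2 (0.0327).

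With 2 libraries a group, single libraries weighed heavily in the TKO comparison. Without day 0 replicate 1 of KMS11, 5 regions of the window passed, without replicate 2 there were 3, and without TKO replicate 1 there was 1, and the lone day 0 or TKO library was then taken to vary like the other groups. The region chr8:126804985-126805611, 930 kb before MYC, showed this. It had 477 and 311 bp in TKO, against 462 and 0 bp in day 0 KMS11, and was higher in TKO without day 0 replicate 1 (limma adjusted p = 0.00606) and -0.15 on the log2 scale without replicate 2 (adjusted p = 0.981).

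The lines differed at many regions of the window. Over day 0 and DMSO libraries (6 against 6), 16 of 78 regions were higher in KMS34 than in KMS11, where 20.0% of all regions were higher, and 15 were lower, where 14.2% of all regions were lower. Together these 31 are 39.7% of the tested regions of the window, a share near that of the genome. With log2 peak number as a covariate, 6 regions of the window were higher and 8 lower, and over the genome 8017 were higher and 8369 lower. With lists of equal length, 9 regions of the window were higher and 12 lower, and over the genome 6870 were higher and 7848 lower. Without scaling, 17 were higher and 13 lower in the window, while over the genome 16684 regions were higher and 7514 lower without scaling, against 13862 and 9835 with it. The median of all tested regions was 0.32 without scaling and 0.14 with it, and that of all genes 0.26 and 0.05, with 8675 genes higher and 2443 lower without scaling and 6999 and 4857 with it.

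**Figure D3:**
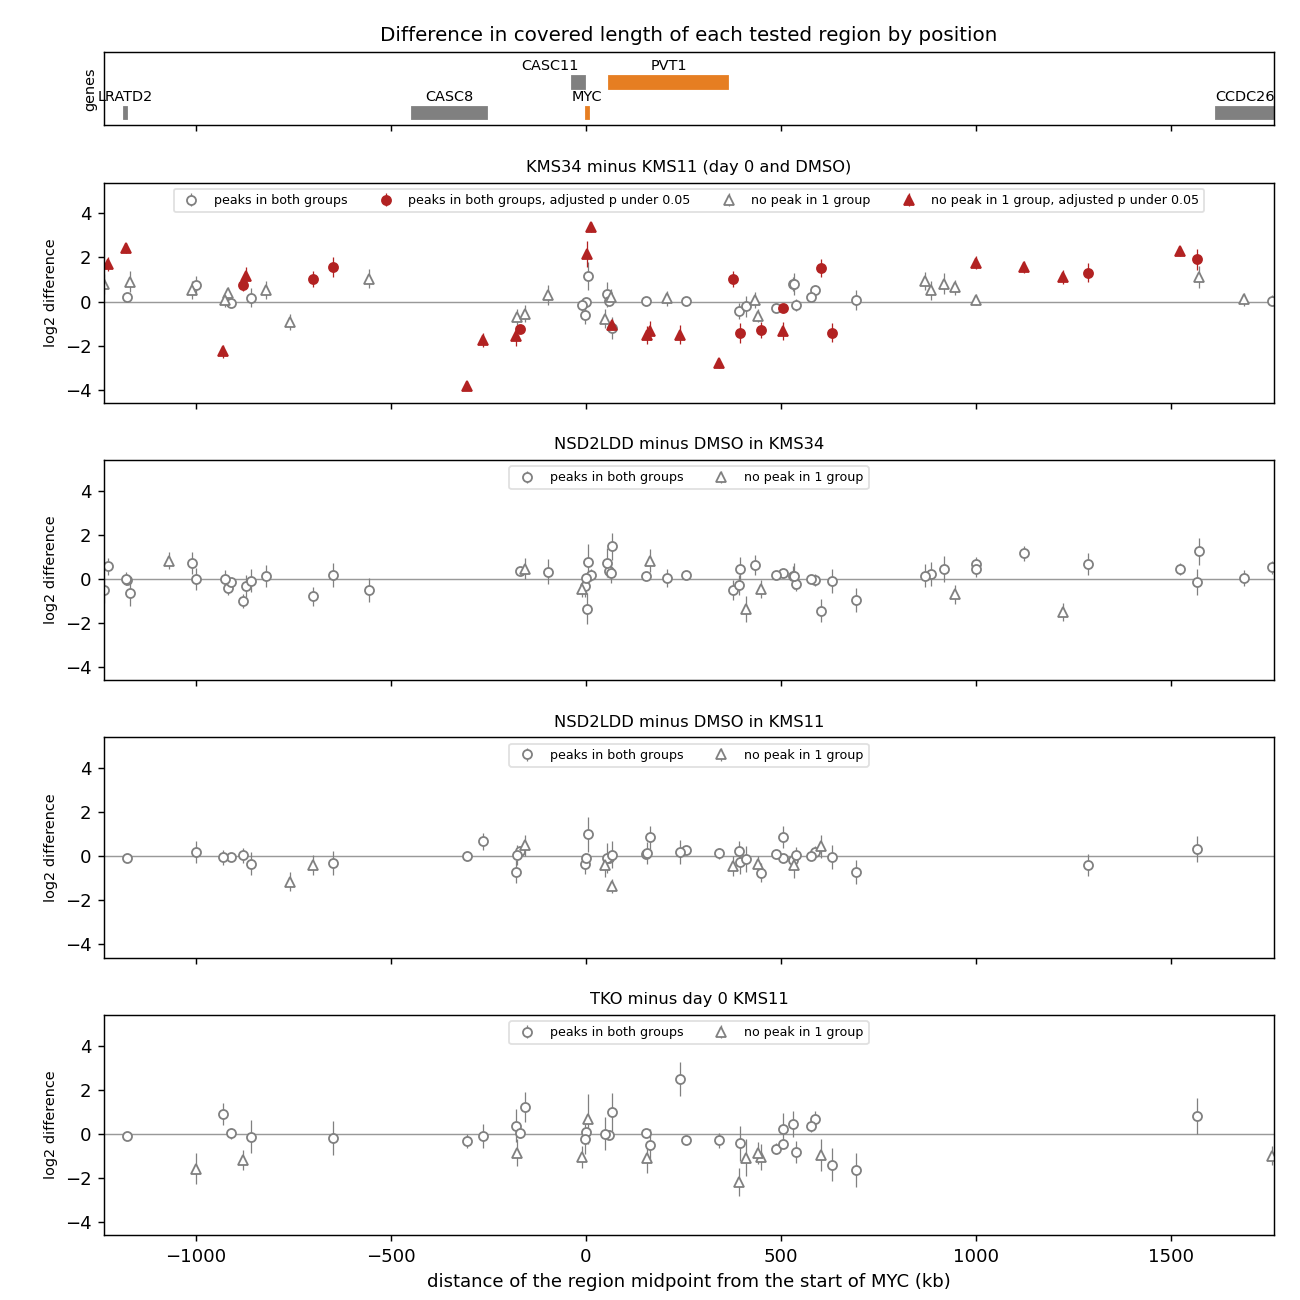
Scaled log2 difference in covered length for each tested region of the window, with SE, by distance from the start of MYC in kb, in 4 comparisons; red symbols passed an adjusted p of 0.05, triangles mark regions with no called peak in 1 of the groups, whose plotted size depends on the 100 bp added, and regions with no peak in both groups are left out. Red symbols appear in the comparison of lines (16 higher and 15 lower in KMS34) and in none of the NSD2LDD and TKO panels.

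Direction varied with position. Before MYC, 6 of 29 tested regions were higher in KMS34 and 5 lower. Over MYC 1 of 3 was higher, and between MYC and PVT1 1 of 3. Over PVT1 none of 11 was higher and 5 were lower, and beyond PVT1 8 of 32 were higher and 5 lower. Between 1000 and 1500 kb past the start of MYC, all 4 tested regions were higher in KMS34. From 500 kb before MYC up to its start, 4 of 9 tested regions were lower and none was higher. Segments hold few regions, and no test of a difference between them was made.

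MYC as a whole was higher in KMS34. It had 2049 to 3406 bp (median 2410 bp) in day 0 and DMSO libraries of KMS34, against 1187 to 2255 bp (median 1616.5 bp) in those of KMS11. The groups overlapped only between 2049 and 2255 bp. The scaled log2 difference was 0.37 ± 0.09 (limma adjusted p = 0.00428), where 35.9% of all genes passed in either direction. With lists shortened to equal length the difference was 0.17 (adjusted p = 0.176).

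PVT1 was lower in KMS34 after scaling. It had 2744 to 4662 bp (median 3727.5 bp) in KMS34, against 2547 to 5869 bp (median 4273.5 bp) in KMS11. The unscaled lengths overlapped widely. The scaled log2 difference was -0.40 ± 0.09 (limma adjusted p = 0.00187). It was -0.19 without scaling (adjusted p = 0.449) and -0.18 with 50 kb either side (adjusted p = 0.124), a span that takes in the MYC-side region described next.

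The region with the smallest p among those higher in KMS34 lies 14 kb past the start of MYC, between MYC and PVT1 and outside annotated genes. At chr8:127748164-127749845, KMS34 had 1143 and 1190 bp in NSD2LDD at day 4, 1176 and 906 bp in NSD2LDD at day 10, 1434 and 1134 bp at day 0, 553 and 1422 bp in DMSO at day 4 and 1251 and 928 bp in DMSO at day 10. No KMS11 library had a called peak there (limma adjusted p = 1.15e-08 for the lines). All 10 KMS34 libraries thus carried it, treated or not, and NSD2LDD and DMSO overlapped.

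Near the ends of the window KMS34 had further regions of its own. At chr8:126556431-126557261 in LRATD2, a gene of the LRAT domain family, peaks covered 227 to 826 bp in day 0 and DMSO libraries of KMS34 (median 553 bp) and were called in no KMS11 library (limma adjusted p = 5.00e-07). At chr8:129258693-129259569 in the non-coding gene LOC124902024, 1524 kb past the start of MYC, they covered 362 to 553 bp in KMS34 (median 461 bp) and none in KMS11 (adjusted p = 4.44e-07). These were the other 2 regions called in all 10 KMS34 and no KMS11 library. With lists of equal length the LRATD2 region no longer passed (adjusted p = 0.137).

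Among regions called in 9 of 10 KMS34 libraries and no KMS11 library, 2 lacked a peak in DMSO day 4 replicate 1, whose list was the shortest of KMS34. Another, chr8:126510353-126510861, instead lacked a peak in DMSO day 10 replicate 2 and had 185 bp in DMSO day 4 replicate 1. The first 2 are given here. At chr8:128736802-128737377, KMS34 had 0 to 515 bp (median 371 bp; limma adjusted p = 0.000306, and 0.281 with lists of equal length). At chr8:128859078-128859946 it had 0 to 729 bp (median 263.5 bp; adjusted p = 0.000290).

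KMS11 in turn had regions that KMS34 lacked, the one with the smallest p of the window among them. At chr8:127429889-127431524, inside the non-coding gene CASC8 and 305 kb before MYC, KMS11 had 960 and 1391 bp in NSD2LDD at day 4, 1085 and 1261 bp in NSD2LDD at day 10, 1353 and 829 bp in TKO, 1265 and 1185 bp at day 0, 1390 and 1022 bp in DMSO at day 4 and 1025 and 1205 bp in DMSO at day 10. No KMS34 library had a called peak there (limma adjusted p = 1.02e-09 for KMS34 minus KMS11). It was a wide region in all 12 KMS11 libraries, TKO included. CASC8 is a cancer susceptibility locus transcript in the desert before MYC.

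A second CASC8 region, chr8:127472013-127472715, was called in 11 of 12 KMS11 libraries (up to 703 bp) and 0 of 10 KMS34 libraries (limma adjusted p = 0.000473). Inside PVT1, chr8:128076654-128077334 had 666 and 618 bp in NSD2LDD at day 4, 632 and 619 bp in NSD2LDD at day 10, 335 and 431 bp in TKO, 454 and 426 bp at day 0, 635 and 545 bp in DMSO at day 4 and 510 and 558 bp in DMSO at day 10, all in KMS11. It was called in 0 of 10 KMS34 libraries (adjusted p = 2.55e-08). Farther out, chr8:126804985-126805611 was called in 11 of 12 KMS11 libraries (up to 529 bp) and 0 of 10 KMS34 libraries (adjusted p = 1.37e-05). The KMS11 libraries without these peaks were DMSO day 10 replicate 2 at CASC8 and day 0 replicate 2 at the farthest region.

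**Figure D4:**
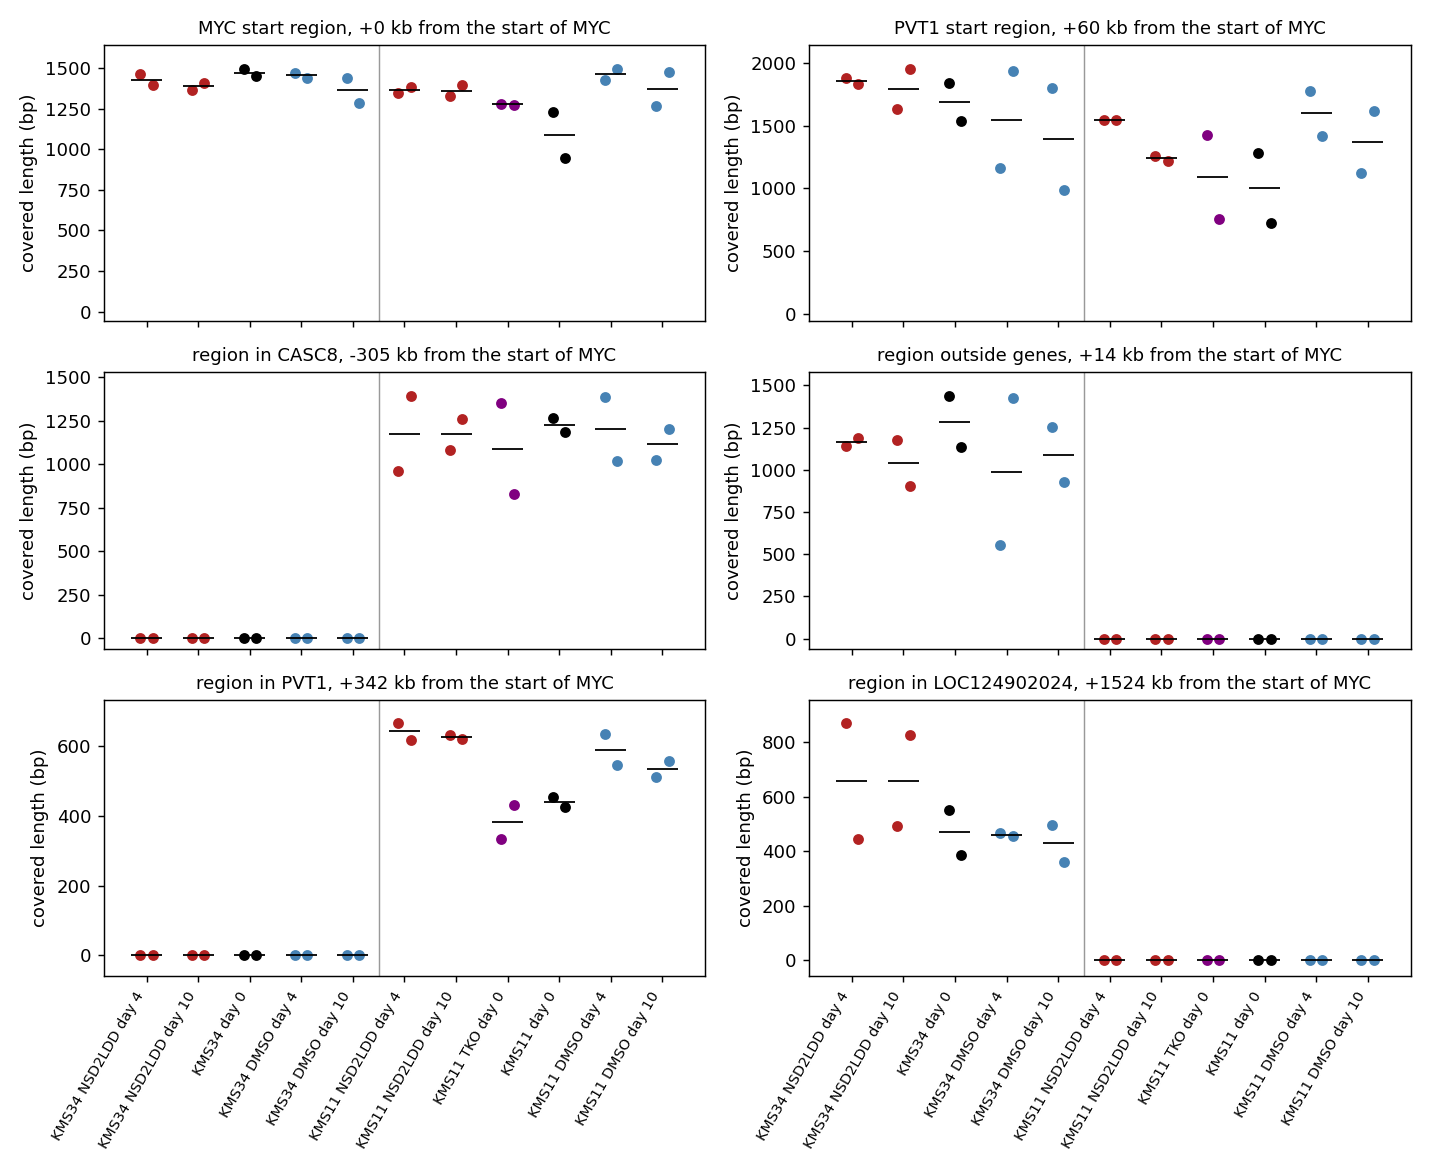
Covered length in bp in each library at the start of MYC, the start of PVT1 and the 4 regions of the window with the smallest p between lines; points are libraries coloured by treatment and black lines are means of 2 libraries, and 0 means that no peak was called. Both promoter regions are covered in all 22 libraries, the CASC8 and far PVT1 regions in KMS11 alone, and the regions at 14 kb and 1524 kb in KMS34 alone.

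One shared region changed its width between lines. At chr8:127565651-127567634, 169 kb before MYC, day 0 and DMSO libraries had 264 to 751 bp in KMS34 (median 526 bp), against 836 to 1708 bp in KMS11 (median 1157 bp). The groups did not overlap. The scaled log2 difference was -1.23 ± 0.14 (limma adjusted p = 5.37e-06). A second shared region, chr8:128240032-128240832, was just past the threshold at -0.28 ± 0.10 (adjusted p = 0.0472), and 14 of 22 fits that left out 1 library lost it (adjusted p up to 0.134), as did fits with no scaling (0.471), with the peak number as covariate (0.531) and with the replicate block (0.0586).

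The remaining 20 regions that differed between lines were 11 higher and 9 lower in KMS34. The 9 lower ones include 4 more inside PVT1, at 67, 156, 165 and 241 kb past the start of MYC, called in 3 to 9 of 12 KMS11 libraries and in 0 to 2 of 10 KMS34 libraries. The 11 higher ones include the region inside MYC and the LINC00976 region given above.

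The NSD2LDD libraries had no weight in the comparison of lines, but they entered its scaling, shared spread and filter of 2 called libraries. Their directions are therefore a description and no independent support, and they were the same for most of these regions. At chr8:128957920-128958292 and chr8:127802493-127802919 no NSD2LDD library of either line had a called peak. Of the 16 regions higher in KMS34, 13 (81.2%) had the same direction there, against 95.2% of all regions that were higher genome-wide, and 8 (50%) had NSD2LDD values of the lines that did not overlap, against 50.8%. Of the 15 lower, 14 (93.3%) had the same direction, against 95.6%, and 6 (40%) did not overlap, against 57.7%.

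As 1 feature, the 3 Mb window passed no test. Its covered length was 21923 to 25996 bp in NSD2LDD and 16739 to 31356 bp in DMSO in KMS34, 15159 to 24354 bp in NSD2LDD and 13897 to 24461 bp in DMSO in KMS11, and 19236 and 11945 bp in TKO, against 18966 and 12168 bp in day 0 KMS11. The scaled log2 difference was 0.0023 ± 0.07 for NSD2LDD in KMS34, 0.01 ± 0.07 in KMS11, -0.01 ± 0.10 between these effects and 0.0072 ± 0.10 for TKO (limma adjusted p = 0.965 to 0.992). Of all 3 Mb windows of the genome, 1.51% passed under NSD2LDD in KMS34, 0% in KMS11, 0% for the difference of effects and 35.4% for TKO. The TKO share rests on scaling and on single libraries, since 353 of 996 windows passed, against 13 without scaling, 211 after quantile normalization, 169 without TKO replicate 1 and 196 without day 0 replicate 2 of KMS11. KMS34 minus KMS11 was 0.02 ± 0.06 at the window (limma adjusted p = 0.716), where 68.0% of windows passed (338 higher and 339 lower). Without scaling it was 0.38 (adjusted p = 0.108), the median of all windows was 0.37, and 389 windows were higher and 15 lower.

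Within the window the bases were spread differently in the lines. PVT1 held 12.6% to 15.1% of covered bases of the window in day 0 and DMSO libraries of KMS34, against 19.8% to 24.1% in those of KMS11. The stretch between MYC and PVT1 held 5.18% to 7.35% in KMS34, against 0.803% to 3.49% in KMS11. Neither share overlapped between lines. MYC held 7.02% to 9.20% in KMS34, against 4.43% to 7.94% in KMS11, and the stretch beyond PVT1 35.2% to 47.3% in KMS34, against 29.9% to 40.4% in KMS11, which overlapped. The PVT1 share also differed by treatment, with 16.3% to 16.7% in NSD2LDD and 12.6% to 15.1% in DMSO in KMS34. In KMS11 it was 24.4% to 26.2% in NSD2LDD and 20.2% to 24.1% in DMSO. Shares of the other parts of the window overlapped between NSD2LDD and DMSO in both lines. The PVT1 share was singled out after its values were seen, and no share was tested.

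Of the 39 other annotated genes of the window, 20 could be tested, and 9 were higher and 2 lower in KMS34 than in KMS11 (median log2 difference 0.32, against 0.05 over all genes). Of all genes tested, 21.2% were higher and 14.7% lower. CASC8 had 0 to 282 bp (median 0 bp) in day 0 and DMSO libraries of KMS34, against 1180 to 1948 bp (median 1357 bp) in KMS11, a log2 difference of -3.00 ± 0.23 (limma adjusted p = 4.98e-08). LRATD2 had 915 to 2039 bp (median 1517.5 bp) in KMS34, against 518 to 919 bp (median 780 bp) in KMS11 (log2 difference 0.66 ± 0.10, adjusted p = 7.92e-05). CCDC26, a long non-coding RNA gene that runs past the high end of the window to 129680239, had 677 to 2057 bp (median 1426 bp) in KMS34, against 0 to 682 bp (median 342.5 bp) in KMS11 (1.46 ± 0.27, adjusted p = 0.000504). Both day 0 libraries of KMS34, with 1519 and 677 bp, had no called peak in the part of CCDC26 inside the window. The line difference at CCDC26 thus rests largely on peaks outside the window. LOC124902024 was covered in KMS34 alone (adjusted p = 1.02e-05). Many of these genes overlap each other and share peaks, so they are not independent. CCAT1, CASC19, PCAT1 and POU5F1B, genes of the desert before MYC, had no called peak within 5 kb in any of the 22 libraries. No gene of the window passed under NSD2LDD or in TKO.

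The genes of the MYC network, those that share or compete for MAX and those around MLX, were compared in the same fit. Of 13, 6 were higher and 1 lower in KMS34 than in KMS11, MYC among the higher, where 21.2% of all genes were higher and 14.7% lower (median log2 difference 0.14, against 0.05 over all genes). MGA, a MAX-dependent repressor, was 0.55 ± 0.10 higher (limma adjusted p = 0.000509). MLXIP and MLXIPL, glucose-responsive factors that pair with MLX, were 0.97 ± 0.22 (adjusted p = 0.00267) and 1.52 ± 0.29 (adjusted p = 0.000625). MLXIP was 0.54 with log2 peak number as a covariate (adjusted p = 0.142). MAX itself was -0.65 ± 0.15 (adjusted p = 0.00329), with -0.44 without scaling (adjusted p = 0.102) and -0.23 with lists of equal length (0.398). None of the 13 passed under NSD2LDD or in TKO.

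Of 22 genes chosen as MYC targets, 2 were higher and 2 lower in KMS34 (median 0.08), where 35.9% of all genes passed in either direction. CCND2, a cyclin of the G1 phase, was 0.51 ± 0.10 (limma adjusted p = 0.000570) and EIF4A1, a translation helicase, 0.76 ± 0.20 (adjusted p = 0.00602). With lists of equal length neither passed, at 0.25 for CCND2 (adjusted p = 0.200) and 0.29 for EIF4A1 (0.326). EIF4E, the cap-binding translation factor, was -0.33 ± 0.09 (adjusted p = 0.00810), with -0.12 without scaling (0.308), -0.19 with the peak number as a covariate (0.222) and -0.14 over the gene body alone (0.425). TERT, the telomerase protein, was -0.35 ± 0.12 (adjusted p = 0.0264), with 0.26 for lists of equal length (0.195), -0.14 without scaling (0.545), -0.33 with the covariate (0.155) and -0.051 with 50 kb either side (0.631). TERT also missed the threshold without any of 6 single libraries (adjusted p up to 0.0952), among them DMSO day 4 replicate 2 of KMS34 and of KMS11. None of the 22 passed under NSD2LDD or in TKO.

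Of 17 factors tied to MYC enhancers, 2 were higher and 6 lower in KMS34 (median 0.0054), where 21.2% of all genes were higher and 14.7% lower. IKZF3, a lymphoid zinc finger factor of myeloma cells, was -1.41 ± 0.11 (limma adjusted p = 1.02e-07) and STAT3, the effector of interleukin-6 signalling, -0.97 ± 0.13 (adjusted p = 2.85e-05). PRDM1, the plasma cell repressor also known as BLIMP1, was 0.61 ± 0.18 (adjusted p = 0.0121), and 0.56 with the peak number as a covariate (0.112). MEF2C, a MADS-box factor, was 0.75 ± 0.12 (adjusted p = 0.000116), with -0.014 for lists of equal length (0.973) and -0.060 with 50 kb either side (0.490). None of the 17 passed under NSD2LDD or in TKO.

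Genes whose covered length followed MYC most closely over the 22 libraries were TGM2, a transglutaminase (Pearson r = 0.90), PLEKHH1 (0.89), PLCG1, a phospholipase of receptor signalling (0.89), HPN, a serine protease (0.88), and NECAB2 (0.87). Those most like PVT1 were RABGAP1L (0.91), TCF4, an E-protein transcription factor (0.91), TSTD2 (0.90), EPG5, an autophagy factor (0.90), and SH3KBP1 (0.90). These are the 5 highest of 16736 protein-coding genes outside the window, picked for the size of r, and libraries share their line and list length. Within a line r was 0.59 to 0.79 in KMS34 and 0.68 to 0.83 in KMS11 for the genes like MYC, and 0.64 to 0.86 in KMS34 and 0.75 to 0.87 in KMS11 for those like PVT1.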

How the data were processed

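ATAC-seq peak lists of 22 libraries were used. Per the submitters' processing notes, fastp, BWA, SAMtools, Picard, MACS3 and deepTools were used on hg38, without roles or versions. Each deposited list gives peak start, end, summit and the −log10 q of the authors' caller, by library. The deposited −log10 q ranked and filtered peaks within a list, and its smallest value is 2.00. The sources used here do not give read depth, the Tn5 shift or caller settings.

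Overlapping peaks on autosomes and X were merged into regions. The value of a region, of a gene of the RefSeq table (body and 5 kb either side; 59098 annotated) or of a 3 Mb window was the length covered by called peaks. Values were log2 of bp plus 100 (regions), 200 (genes) or 1000 (windows), less the library median over features called in all libraries. Features called in at least 2 libraries (69187 regions, 33027 genes, 996 windows) were fitted with limma 3.58.1 (trend, robust; R 4.3.3), with 11 group means in 1 fit of the 22 libraries, and p-values adjusted by Benjamini-Hochberg over all features of a level (threshold 0.05). Errors of log2 differences are SE. Where a group had no called peak, no fold is given. Covered length was checked against bedtools 2.31.1 and the fits were tested on simulated data. Python 3.11.15, numpy 2.4.6, pandas 2.3.3 and matplotlib 3.10.9 served for the rest.

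NSD2LDD was compared with DMSO within a line, days 4 and 10 together (4 libraries against 4), and these effects between lines. TKO was compared with KMS11 at day 0 (2 against 2), and KMS34 with KMS11 in the untreated and DMSO libraries (6 against 6). NSD2LDD in KMS11 and KMS34 use their own controls, while the comparison of lines reuses the DMSO and day 0 libraries. Regions named are those within 1 kb of an end of MYC or PVT1, those called in all 22 libraries, up to 10 that passed per comparison and the 2 with the smallest p in either direction. From each gene list up to 4 genes that passed are named. The members, lists and tests were chosen with earlier results of these data known. Sequences of the window were not used here.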

Additional observations from a re-analysis of the deposited data

Results flagged for a closer look

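In 6 of 110 groups of 4 or 6 libraries at MYC, PVT1, the window and the named regions, 1 library stood apart from the others of its group by its gap over the group's range, and chance gives about 1 in 20. The values are covered lengths, and the gaps were judged on the scaled log2 values. At chr8:127748164-127749845, NSD2LDD day 10 replicate 2 had 906 bp, low among the 4 NSD2LDD libraries of KMS34, and DMSO day 4 replicate 1 had 553 bp, low among the 6 day 0 and DMSO libraries. At chr8:129258693-129259569 that same DMSO library of KMS34 had 467 bp, high on the scaled values among the 4 DMSO libraries. At chr8:126557653-126558875 in LRATD2, day 0 replicate 2 had 688 bp, low among the 6 day 0 and DMSO libraries of KMS34. Day 0 replicate 2 of KMS11, whose list was the shortest of all, stood apart from the 6 day 0 and DMSO libraries of KMS11 at chr8:127992468-127993778 with 752 bp and at chr8:128221928-128222766 with 821 bp, both high on the scaled values.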

How the results depend on the processing

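Depth is unknown, so list length stands in for it and limits every region without a peak. For NSD2LDD in KMS11 the window was -0.065 by the number of peak summits and MYC -0.071 with lists of equal length, and 1 region passed with lists of equal length, quantile normalization, called-or-not scores or summit windows. For NSD2LDD in KMS34 the window was -0.0039 with the peak number as covariate, -0.00066 in a fit within 1 line and -0.082 by the number of peak summits. MYC there was 0.0091 with −log10 q of 5 or more and 0.055 with 50 kb either side, and 2 regions passed with −log10 q of 5 or more and 1 with lists of equal length, no scaling or quantile normalization. For the difference of the effects MYC was 0.045 with 50 kb. For TKO the window was -0.0026 with no scaling, -0.026 with quantile normalization and -0.0047 by the number of peak summits, MYC was -0.0021 with lists of equal length and -0.065 with 50 kb, and PVT1 was -0.052 with 50 kb. In TKO 3 regions passed with lists of equal length and 1 with −log10 q of 5 or more, quantile normalization, a fit within 1 line or 300 bp added. For KMS34 minus KMS11 the window was -0.019 with the covariate and -0.031 by the number of peak summits, MYC was 0.17 with lists of equal length, PVT1 was -0.19 with no scaling and -0.18 with 50 kb, and 14 regions passed with the covariate, against 31. With 50 kb either side MLXIPL was -0.012, CCND2 -0.059 and MEF2C -0.060, and with lists of equal length MEF2C was -0.014 and TERT 0.26. The cause of these changes was not tested.

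Leaving out each library in turn, the window ranged over -0.030 to 0.060 for NSD2LDD in KMS11, -0.035 to 0.040 in KMS34, -0.057 to 0.033 for their difference, -0.080 to 0.095 for TKO and -0.011 to 0.059 for the lines. MYC ranged over 0.011 to 0.20, -0.12 to 0.012, -0.25 to -0.065, 0.011 to 0.16 and 0.32 to 0.41 in the same comparisons, and PVT1 over 0.15 to 0.30, 0.20 to 0.40, -0.018 to 0.18, 0.16 to 0.32 and -0.46 to -0.33. Regions that passed numbered 0 to 1, 0 to 2, 0, 0 to 5 and 23 to 32. For TKO, chr8:126804985-126805611 was 1.95 without day 0 replicate 1 of KMS11 and -0.15 without replicate 2.

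The shared replicate numbers were not shown to pair the libraries, since same-numbered deviations correlated between groups at -0.17 to 0.21 over regions, -0.21 to 0.27 over genes and -0.57 to 0.60 over 3 Mb windows. With the replicate block, 30 regions of the window differed between lines, MYC was 0.37 (limma adjusted p = 0.00441) and PVT1 -0.40 (0.00271), and 0 regions passed in the other comparisons. Over the genome, 86 regions were higher and 52 lower for NSD2LDD in KMS34 with the block, against 444 and 238 without it, and 13 and 12 in KMS11, against 26 and 22. Of all genes, 20 passed for NSD2LDD in KMS34, against 0 in a fit within 1 line and 128 with lists of equal length, and 1368 for TKO, against 545 without scaling. Of all 3 Mb windows, 15 passed for NSD2LDD in KMS34, against 0 with lists of equal length and 46 after quantile normalization.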
